A study of Homo sapiens with 4 samples.

Results

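The anoctamins (TMEM16 proteins) are a family of 10 human membrane proteins with related sequences, encoded by *ANO1* to *ANO10*. To ask how the family responded to chaetocin, all 10 genes were followed through RNA sequencing of U87MG cells. The family was chosen for the lower level of *ANO8* in this same comparison, so the values of *ANO8* are given as a description with no test. The other 9 genes entered by their name. All 10 were among the 57905 genes with a deposited read count, and 7 of them passed the filter on low counts that left 16416 genes for testing.

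U87MG is an established line of human glioblastoma (GBM), and the labels describe the cells as wild type, at passages 8-10. One group of 2 samples received 50 nM chaetocin, a fungal metabolite known as an inhibitor of histone methyltransferases, for 24 h. The other group of 2 samples was left untreated. The drug was dissolved in DMSO, and no DMSO is named for the control cells, so drug and solvent cannot be told apart. The labels do not say whether samples came from separate cultures, so p-values measure only the spread between these samples. Polyadenylated RNA of whole cultures was read as 50 bp single-end reads. In such bulk RNA, fewer expressing cells and less RNA per cell cannot be told apart.

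The totals ranged from 21241984 to 32590479 reads per sample. Levels are given as CPM, read counts relative to the library total after TMM scaling. A count of 3 reads, the limit that a count of 0 allows, was worth between 0.0843 and 0.138 CPM. This limit covers counting error only. Between 24174 and 24699 genes had a read in the first 3 samples, and 27748 in chaetocin sample 2. The glioma markers *VIM*, *CD44* and *TNC* were abundant, whereas the astroglial gene *GFAP* had 25 reads in each control sample and 10 and 17 with chaetocin. *SOX2* and *S100B* had 0 reads in both controls, and 2 and 5 (*SOX2*) and 2 and 2 (*S100B*) with chaetocin. The summed level of the 12 glioma markers was 11074 to 13394 CPM in control and 6110 to 9449 CPM in chaetocin samples. The groups did not overlap, downward, for 7 of 10 tested markers, against 26.0% of all genes tested, and 0 of the 10 were called by edgeR (adjusted p under 0.05), where 1.11% of all genes were called higher and 0.743% lower.

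Anoctamins are dimers of subunits that cross the membrane several times. ANO1 and ANO2 are chloride channels that open when calcium rises in the cell. ANO6 is a calcium-activated scramblase that moves phospholipids between the leaflets of the plasma membrane and exposes phosphatidylserine, and scrambling is also known for several other members. ANO5 and ANO10 act largely inside the cell, and ANO8 is described as a tether that holds the endoplasmic reticulum (ER) close to the plasma membrane and gathers calcium signalling proteins there. ANO1 is best known in secretory epithelia and gut pacemaker cells, ANO2 in olfactory neurons, ANO5 in skeletal muscle and bone, and ANO7 in the prostate.

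The family divided into a transcribed set and a near-silent set, and the RefSeq promoter windows of 2 members of each are shown to let their sequence be compared with their reads. Windows were given for 8 of the 10 genes, not for *ANO8* and *ANO9*. Each line holds the 250 bases before a RefSeq start on GRCh38.p14, read 5′ to 3′ on the strand of the gene, with CpG dinucleotides in capitals. The *ANO1* window is chr11:69985657-69985906 on the plus strand, and the *ANO2* window is chr12:5945260-5945509 on the minus strand. Those of *ANO5* and *ANO10* are chr11:22192356-22192605 on the plus strand and chr3:43622012-43622261 on the minus strand.
ANO1: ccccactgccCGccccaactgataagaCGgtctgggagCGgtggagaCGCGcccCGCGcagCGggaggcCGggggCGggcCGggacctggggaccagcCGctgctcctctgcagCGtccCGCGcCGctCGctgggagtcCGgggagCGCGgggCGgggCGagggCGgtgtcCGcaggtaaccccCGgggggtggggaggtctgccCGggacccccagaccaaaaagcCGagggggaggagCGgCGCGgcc
ANO2: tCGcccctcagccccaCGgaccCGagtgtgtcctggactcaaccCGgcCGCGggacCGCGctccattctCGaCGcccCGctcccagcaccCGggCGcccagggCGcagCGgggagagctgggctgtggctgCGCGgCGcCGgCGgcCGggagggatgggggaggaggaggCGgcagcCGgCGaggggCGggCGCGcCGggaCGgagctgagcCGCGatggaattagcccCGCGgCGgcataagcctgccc
ANO5: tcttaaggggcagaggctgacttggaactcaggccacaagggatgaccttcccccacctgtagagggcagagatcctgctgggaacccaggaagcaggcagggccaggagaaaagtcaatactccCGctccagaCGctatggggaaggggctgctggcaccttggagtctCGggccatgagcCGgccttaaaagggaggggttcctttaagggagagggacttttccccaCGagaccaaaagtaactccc
ANO10: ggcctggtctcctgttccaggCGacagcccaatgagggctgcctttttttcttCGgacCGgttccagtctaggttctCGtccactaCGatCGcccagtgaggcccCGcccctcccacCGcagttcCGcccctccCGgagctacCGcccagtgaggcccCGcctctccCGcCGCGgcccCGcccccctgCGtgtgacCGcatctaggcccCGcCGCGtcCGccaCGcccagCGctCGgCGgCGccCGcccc

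The near-silent *ANO1* and *ANO2* had 30 and 34 CpG in these windows. The *ANO1* window lies upstream of the GENCODE v29 start of the gene, at 70078302. The well transcribed *ANO10* had 28 in the window shown, and *ANO5* had 5. Each of these windows lies inside its gene, downstream of the GENCODE v29 start, at 43691594 for *ANO10* and 21799934 for *ANO5*. The median over all 35116 RefSeq windows was 11. The windows not shown that adjoin the GENCODE v29 starts of *ANO2* and *ANO10*, at chr12:5946233-5946482 and chr3:43691595-43691844, had 1 and 10 CpG. The *ANO6* window at chr12:45292440-45292689 had 2, and it lies inside the gene, downstream of its GENCODE v29 start at 45215987. Across the windows shown, CpG content did not order the genes by their reads. Gene counts do not show which start is used, the windows do not cover all starts, and the reads were aligned to an older build (GRCh37). The core of the antioxidant response element, searched as TGACNNNGC on both strands, was in 1 of 13 windows of the family, that of *ANO4* at chr12:100794526-100794775. It was in 10.9% of all windows. The match is a description of letters only.

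**Figure D1:**
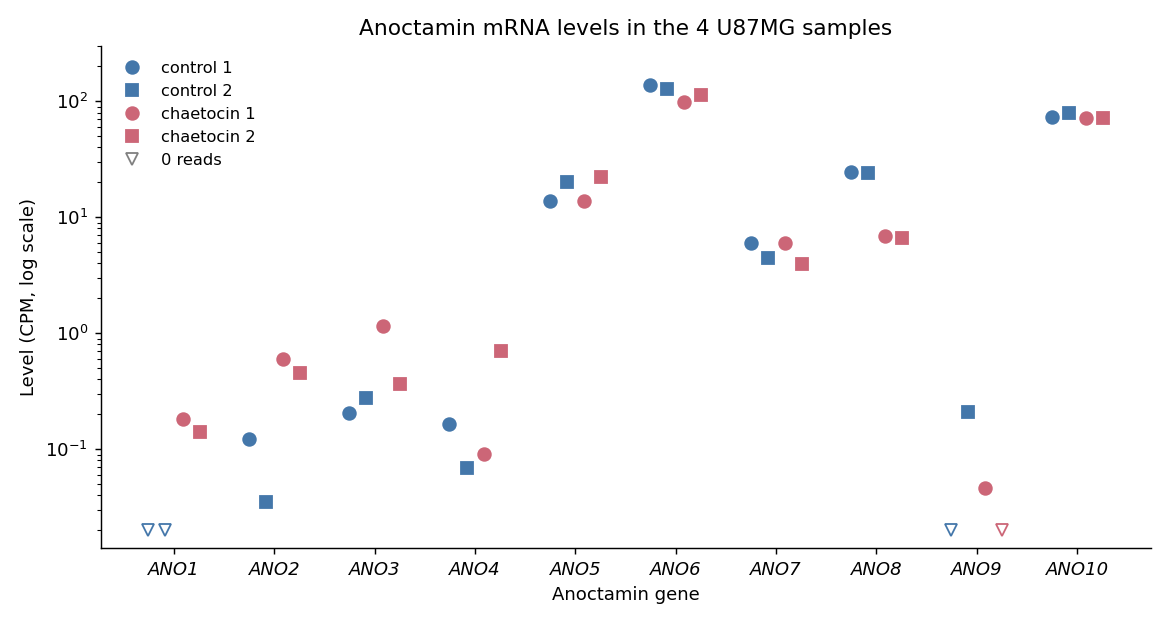
Level of each anoctamin in CPM on a log axis, with 1 point per sample (circles are replicate 1, squares replicate 2, open triangles samples with 0 reads). *ANO6* and *ANO10* lie highest in all 4 samples, and the chaetocin points of *ANO8* (6.60 and 6.88 CPM) lie below its control points (24.0 and 24.6 CPM).

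*ANO8* (ENSG00000074855), the ER tether, had the largest fold change between the groups among the members with more than 100 reads in a sample. Untreated cells gave 600 and 689 reads, and treated cells 150 and 235. These counts gave levels of 24.6 and 24.0 CPM in control and 6.88 and 6.60 CPM in chaetocin cells. The groups were far apart, and the replicates of each group nearly coincided. The mean was 24.3 ± 0.43 CPM in control and 6.74 ± 0.20 CPM with chaetocin (SD, n = 2 each), 3.60-fold lower. The fitted log2 fold change was -1.85, which ranked 32 from the lowest of the 16416 genes tested. Leaving out any 1 sample gave values between -1.87 and -1.82. The rule of the choice used this comparison, so no p-value is attached to it. At the adjusted p of 0.05, 0.743% of all genes tested were called lower and 1.11% higher. Both chaetocin samples lay below both controls for 26.0% of genes and above them for 26.7%, and nothing is read from these shares for *ANO8*.

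The same *ANO8* reads can be set against those of its paralogs in the same sample, which needs no scaling of the libraries. These ratios restate the values by which the family was chosen and are no further support for them. The *ANO8* reads amounted to 17.9% and 18.7% of the *ANO6* reads in the control samples. With chaetocin they were 7.03% and 5.87%. Against *ANO10*, the shares were 33.3% and 30.5% in control and 9.55% and 9.24% with chaetocin.

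*ANO6*, the scramblase, was the most abundant member by reads in every sample. Its level was 138 and 128 CPM in control and 97.9 and 112 CPM in chaetocin samples. Both treated samples lay below both controls. Where *ANO8* was 3.60-fold lower on average, *ANO6* was 1.26-fold lower. The log2 fold change was -0.33 (SE 0.15), with a 95% interval from -0.67 to 0.0045 and an adjusted p of 0.252 (edgeR's quasi-likelihood test). It therefore did not pass the test, and the interval leaves room for a fall, but not for one as large as that of *ANO8*.

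*ANO10*, a widely transcribed intracellular member, was the steadiest. Its level was 73.8 and 78.6 CPM in control samples. In chaetocin samples it was 72.1 and 71.5 CPM. The groups did not overlap, yet they differed by less than the control samples differed from each other. The log2 fold change was -0.09, with an interval from -0.40 to 0.23 and an adjusted p of 0.782.

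*ANO5*, known for its part in the repair of muscle membranes, varied between replicates more than between groups. It was measured at 13.7 and 20.3 CPM in control and at 13.9 and 22.3 CPM with chaetocin, so the groups overlapped. The log2 fold change was 0.09 (95% interval -0.53 to 0.72, adjusted p = 0.887). Its sign turned to -0.30 without chaetocin sample 2 and to -0.17 without control sample 1. Of the 8 muscle markers only *TNNT1* had enough reads to be tested, with *MYH1*, *MYH2* and *MYH7* at 0 reads in all 4 samples. The summed level of the 8 markers, nearly all of it *TNNT1*, was 44.2 to 47.9 CPM in control and 29.4 to 58.9 CPM in chaetocin samples.

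*ANO7*, a member known from the prostate, was the lowest of the transcribed set. It was found at 5.98 and 4.49 CPM in control and at 5.97 and 3.93 CPM in treated cells. Here too the groups overlapped, and the log2 fold change was -0.09 (95% interval -0.76 to 0.59, adjusted p = 0.904). Its sign also turned, to 0.19 without chaetocin sample 2 and to 0.12 without control sample 1. A related locus, *ANO7L1*, had 6 to 16 reads per sample, and reads that fit both genes cannot be told apart in these counts.

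**Figure D2:**
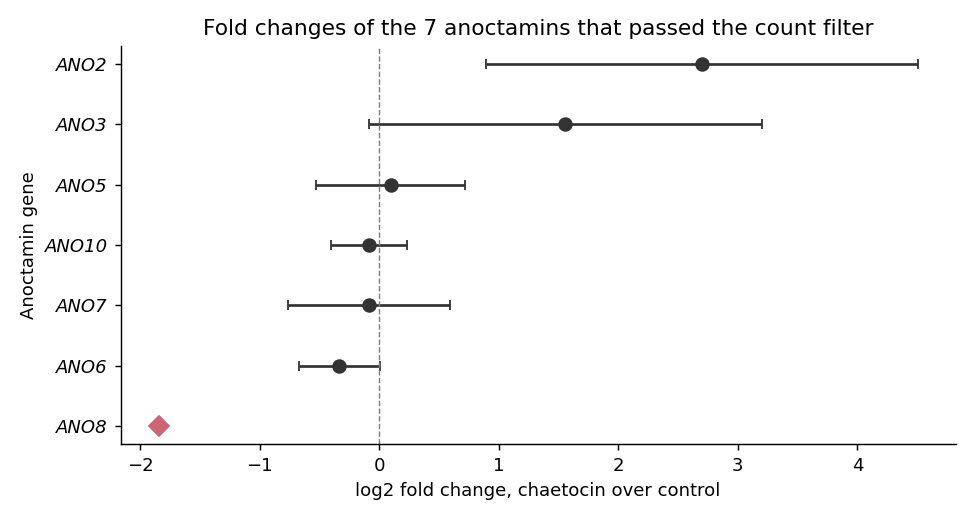
Log2 fold change, chaetocin over control, of the 7 anoctamins that passed the filter. Bars are 95% intervals of edgeR's fit (n = 2 per group), and *ANO8* (diamond, -1.85) has none, since it was chosen by this value; the intervals of *ANO3*, *ANO5*, *ANO6*, *ANO7* and *ANO10* span 0, and that of *ANO2* does not, a gene that passed the filter only through its chaetocin reads.

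The other 5 members had at most 25 reads in any sample. *ANO2*, the olfactory chloride channel, had 3 and 1 reads in control and 13 and 16 with chaetocin. Both treated samples were higher, with means of 0.08 ± 0.06 and 0.52 ± 0.10 CPM (SD, n = 2 each). The log2 fold change was 2.70 (95% interval 0.89 to 4.50), and the adjusted p of 0.113 missed the threshold. *ANO2* passed the filter only through its reads in the chaetocin samples, so a difference in this direction was built in.

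*ANO3*, a member transcribed mainly in brain, had 5 and 8 reads in untreated cells against 25 and 13 in treated cells. The chaetocin samples differed from each other, at 1.15 and 0.37 CPM, by more than the lower of them differed from the controls, at 0.20 and 0.28 CPM. *ANO3* also passed the filter only through the chaetocin samples. Its log2 fold change was 1.56 (95% interval -0.09 to 3.20, adjusted p = 0.270), and it was 0.58 without chaetocin sample 1.

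*ANO1*, the epithelial chloride channel, had 0 reads in untreated cells, and 4 and 5 in the treated samples. *ANO4* had 4 and 2 reads in control and 2 and 25 with chaetocin. Its 25 reads thus came from chaetocin sample 2 alone, the sample in which the most genes had a read. *ANO9* had 0 and 6 reads in control and 1 and 0 with chaetocin. These 3 genes did not pass the filter and were not tested, and for *ANO4* and *ANO9* the groups overlapped.

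Some markers of other cell types, like *ANO1*, *ANO2* and *ANO3*, had more reads in the treated samples, and others had fewer. Of 12 leukocyte markers, 6 were tested and 2 were called higher, against 1.11% of all genes tested. These were *PTPRC*, the pan-leukocyte antigen, with 0 and 1 reads in control and 15 and 27 with chaetocin, and *ITGAM*, an integrin of myeloid cells, with 0 and 1 against 24 and 29 reads. Both passed the filter only through the chaetocin samples, as *ANO2* and *ANO3* did, so a difference in this direction was built in. The lymphocyte genes *CD3E* and *MS4A1* had 0 reads throughout. The summed level of the list, nearly all of it *HLA-DRA* and *CSF1R*, was 165 to 218 CPM in control and 107 to 218 CPM in chaetocin samples. Of 6 neuronal markers, 3 were tested and *TUBB3*, a tubulin, was called higher, with 74 and 129 against 239 and 430 reads. The most abundant of them, *SNAP25*, a synaptic vesicle fusion protein, had 1027 and 996 reads in control and 630 and 393 with chaetocin, with a log2 fold change of -0.95, and was not called. The summed level of that list was 40.1 to 46.0 CPM in control and 24.7 to 41.5 CPM in chaetocin samples. The 7 epithelial markers summed to 2.33 to 2.99 CPM in control and 4.13 to 4.73 CPM in chaetocin samples, with *KRT5* and *KRT14* at 0 reads and 0 of 3 tested genes called. The 5 endothelial markers found summed to 13.6 to 18.6 CPM in control and 11.7 to 12.2 CPM with chaetocin, with 0 of 3 called. The part of such cells in the reads of *ANO1*, *ANO2* and *ANO3* was not tested.

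Levels of different genes were compared per kilobase of exon, by the exon lengths of GENCODE v29. In control cells *ANO6* stood at 16.1 ± 0.82 CPM per kb and *ANO10* at 14.4 ± 0.64 (SD, n = 2 each), and the gap between the closest samples of the pair was smaller than that between the *ANO6* samples. *ANO8* followed at 4.87 ± 0.09, then *ANO5* at 2.25 ± 0.61 and *ANO7* at 0.92 ± 0.19 CPM per kb. The remaining 5 genes were between 0 and 0.0314 CPM per kb, and their order is within the reach of a few reads.

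With chaetocin, *ANO10* was at 13.6 ± 0.07 CPM per kb and *ANO6* at 12.8 ± 1.25, and the samples of the pair overlapped. *ANO5* at 2.39 ± 0.79 now stood above *ANO8* at 1.35 ± 0.04 CPM per kb. In the controls both *ANO8* values, 4.93 and 4.81, were above both *ANO5* values, 1.82 and 2.69. In the chaetocin samples both, at 1.38 and 1.33, were below those of *ANO5*, at 1.84 and 2.95 CPM per kb. *ANO7* was at 0.87 ± 0.25 CPM per kb, and the other 5 genes were between 0.0037 and 0.0982.

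The reads of all 10 genes summed to 256 CPM in both control samples and to 199 and 218 CPM with chaetocin. Without *ANO8*, the sums were 231 and 232 CPM in control and 192 and 212 CPM in treated samples. *ANO8* took 9.59% and 9.36% of the family's reads in control cells. With chaetocin its share was 3.46% and 3.02%. *ANO6* kept about the same share, 53.7% and 50.0% in control against 49.3% and 51.5% with chaetocin, and *ANO10* went from 28.8% and 30.7% to 36.3% and 32.7%.

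**Figure D3:**
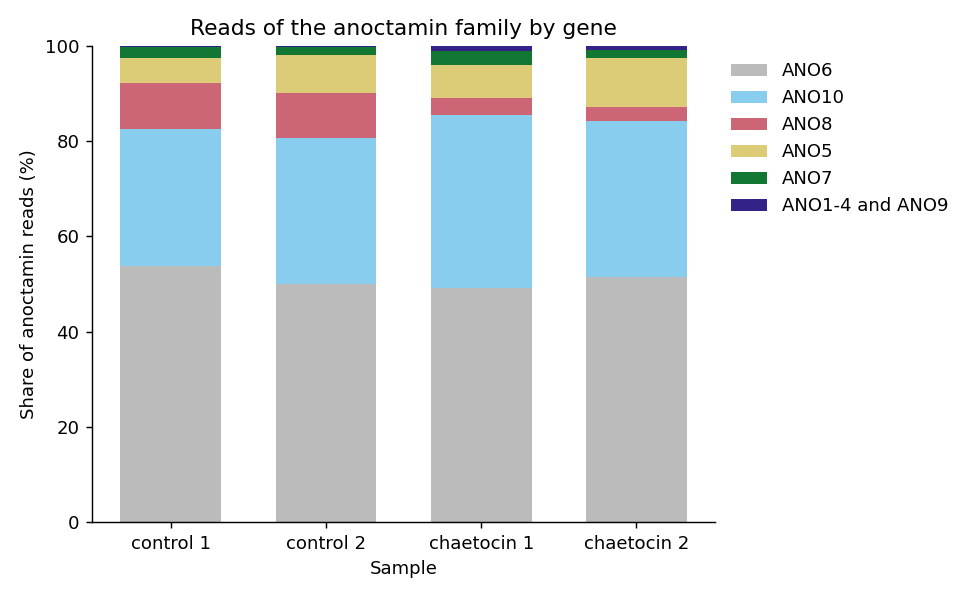
Share of the family's reads (in %, not scaled by length) taken by each anoctamin in each of the 4 samples. The *ANO8* segment is 9.59% and 9.36% in the control bars and 3.46% and 3.02% in the chaetocin bars.

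The genes beside *ANO8* were examined next, because the strand setting of the counting is not given in the sources used here. In GENCODE v29 (GRCh38), *ANO8* spans bases 17323223 to 17334829 of chromosome 19 and is read from the minus strand. Its exons share 79 bases with those of *DDA1*, a partner of ubiquitin ligases on the opposite strand, and reads from those bases could be counted for either gene. *DDA1* had 2193 and 2405 reads in control and 2084 and 3232 with chaetocin, with a log2 fold change of 0.11 (95% interval -0.21 to 0.43, adjusted p = 0.725). On the other side, *GTPBP3*, a mitochondrial tRNA modification enzyme, starts 91 bases from the start of *ANO8* and is read in the opposite direction. It had 550 and 740 reads in control and 805 and 808 with chaetocin, a log2 fold change of 0.30 (95% interval -0.24 to 0.84, adjusted p = 0.515). None of the 5 tested neighbours, which also include *ABHD8*, *MRPL34* and *ANKLE1*, was called, which is little to read with 1.11% of all genes called higher and 0.743% lower. Of these 5, 3 had a log2 fold change above 0. The intervals of 4 of them exclude a fall as large as that of *ANO8*, and that of *ANKLE1*, with 8 to 29 reads per sample, includes it.

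**Figure D4:**
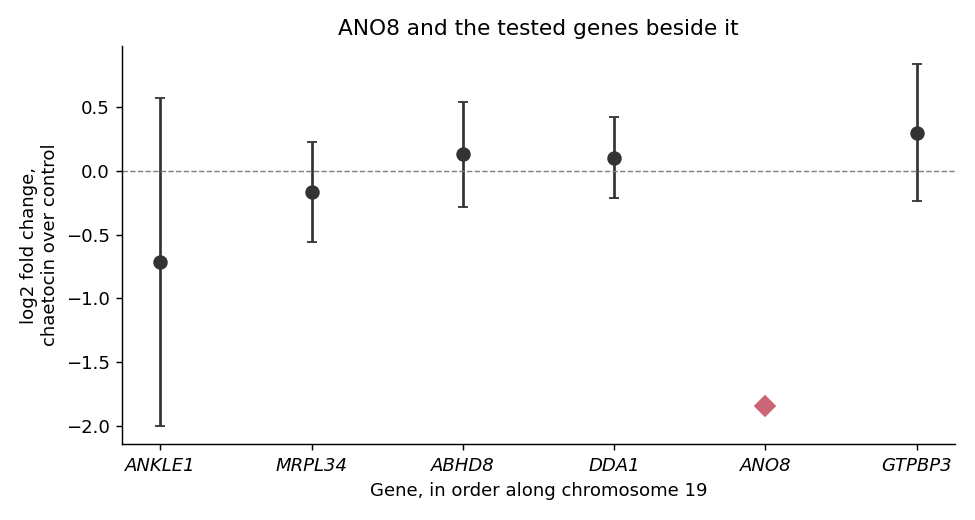
Log2 fold change, chaetocin over control, of *ANO8* (diamond) and the 5 tested genes beside it, in their order along chromosome 19. Bars are 95% intervals of edgeR's fit (n = 2 per group); the points of *DDA1* (0.11) and *GTPBP3* (0.30) on both sides of *ANO8* lie above 0.

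Other members also share ground with other genes. *ANO10* shares 170 exon bases with *ABHD5*, a lipase activator on the opposite strand, whose log2 fold change was -0.31 (adjusted p = 0.273). *ANO6* shares 55 bases with the pseudogene *PLEKHA8P1*, which had 89 to 123 reads per sample. *ANO3* shares 175 bases with *MUC15*, and *ANO1* shares 646 bases with its antisense gene *ANO1-AS1*. Both of these partners had 0 reads in all 4 samples.

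The genes whose levels followed that of *ANO8* most closely over the 4 samples were sought among 3398 genes of similar abundance, by the Euclidean distance between centred log2 CPM profiles. They were *TENM2*, a teneurin adhesion protein (distance 0.29), *ITGA11*, a collagen-binding integrin subunit (0.39), and *NEGR1*, a cell adhesion molecule of neurons (0.46). *TENM2* had 328 and 322 reads in control and 88 and 109 with chaetocin. *ITGA11* had 566 and 447 against 123 and 193 reads, and *NEGR1* had 691 and 777 against 243 and 359. All 3 were picked for this likeness over 4 samples in 2 groups, so any gene with a similar fall would score well.

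The structural relatives of the anoctamins, the TMC and TMEM63 proteins, gave 6 tested genes of 11, and 0 were called, against 1.11% of all genes tested called higher and 0.743% lower. The mechanically gated channels *TMEM63B* and *TMEM63A* were the most abundant. *TMEM63B* was at 53.3 ± 1.33 CPM in control and 45.7 ± 0.30 CPM with chaetocin (SD, n = 2 each). Its log2 fold change was -0.22 (adjusted p = 0.421). *TMEM63A* had a log2 fold change of -0.12. Both chaetocin samples lay below both controls for 4 of the 6 genes, against 26.0% of all genes tested, and the median log2 fold change was -0.17, against 0.01 over all genes tested.

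Among 33 other chloride and anion channels, 23 were tested and 0 were called, against 1.11% of all genes tested called higher and 0.743% lower. Of the 23 log2 fold changes, 12 were above 0, and the median was 0.05, against 0.01 over all genes. The intracellular channel protein genes *CLIC4* and *CLIC1* were the most abundant in control. With chaetocin *CLCN3*, named only for this comparison, averaged 159 CPM, level with *CLIC1*. *CLIC4* was at 562 CPM in control and 466 CPM with chaetocin on average, and *CLIC1* at 244 and 158 CPM. Their log2 fold changes were -0.27 (adjusted p = 0.408) and -0.63 (adjusted p = 0.129).

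Of 25 tested lipid scramblases and flippases outside the family, 1 was called higher and 0 lower, against 1.11% and 0.743% of all genes tested. Their median change was 0.11 on the log2 scale, against 0.01 over all genes. The called gene was *TMEM41B*, an ER scramblase needed for autophagosome formation. It had 1119 and 1309 reads in control and 1702 and 2811 with chaetocin, and its log2 fold change was 0.78 (95% interval 0.46 to 1.10, adjusted p = 0.0382, edgeR). *TMEM41B* was thus higher in 2 of 2 treated samples, where the plasma membrane scramblase *ANO6* was lower without passing the test.

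The genes of ER-plasma membrane contact and store-operated calcium entry, the setting in which ANO8 is described, gave 36 tested genes of 42 listed symbols. Of the 36 tested, 0 were called higher and 1 lower, against 1.11% and 0.743% of all genes tested. Their median change was -0.16 on the log2 scale, against 0.01 over all genes. The called gene was *ATP2B4*, a calcium pump of the plasma membrane. It fell from 10931 and 12306 reads to 5300 and 8321, a log2 fold change of -0.87 (95% interval -1.23 to -0.52, adjusted p = 0.0382, edgeR). It was not called without control sample 1, nor without control sample 2, in fits where the lone control was assumed to vary like the chaetocin pair. The chaetocin samples lay below the controls without overlap for 18 of the 36 genes (50.0%), against 26.0% of all genes, and above them for 3 (8.33%), against 26.7%. The calcium sensors *STIM1* and *STIM2*, looked up for their role and not by the naming rule, had log2 fold changes of 0.01 (95% interval -0.30 to 0.33) and 0.11 (95% interval -0.23 to 0.44). *ORAI1*, the pore of the store-operated channel, was listed, but its symbol was not found among the matched identifiers, so it was not analysed.

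**Figure D5:**
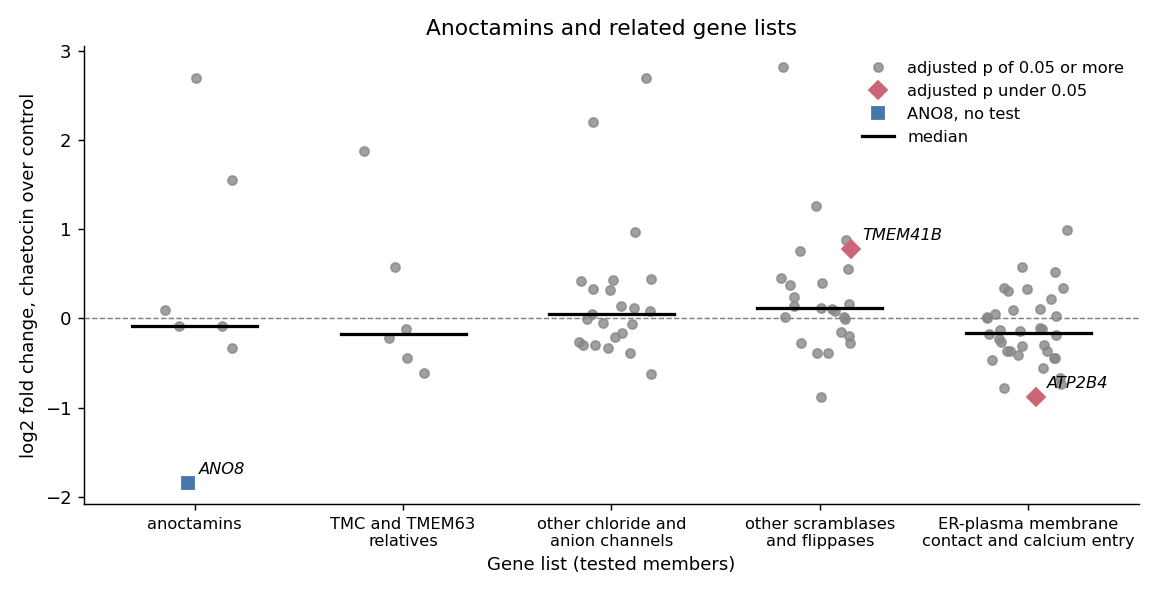
Log2 fold change, chaetocin over control, of each tested gene (1 point per gene) in the anoctamin family and 4 related lists, with the median as a bar. Diamonds are genes with an adjusted p under 0.05 (*TMEM41B* at 0.78 and *ATP2B4* at -0.87), and the square is *ANO8* at -1.85, which carries no test; points are spread sideways only for legibility.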

How the data were processed

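RNA sequencing of 4 U87MG samples was analysed, 2 untreated and 2 treated with chaetocin. The authors deposited raw read counts per Ensembl gene, 1 table per sample, as whole numbers without normalization. The submitters' processing notes name cutadapt, TopHat2, SAMtools and GRCh37, and the counting tool, annotation and strand setting are not given in the sources used here. The counts were tested with edgeR 4.0.16 in R 4.3.3 by the quasi-likelihood test with a robust fit, after filterByExpr (minimum count 10) and TMM scaling, with no block. The study itself used DESeq2. P-values were adjusted by Benjamini and Hochberg over all 16416 genes, with a threshold of 0.05. The biological coefficient of variation was 16.8%. Standard errors and 95% intervals came from the F statistic. Symbols were matched for 39538 of 57905 identifiers. Exon lengths, overlaps and neighbours are those of GENCODE v29 (GRCh38), and promoter sequences are from RefSeq (GRCh38.p14). The fit was tested on simulated data.

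The members and gene lists were chosen with earlier results of these data known. The named genes were all members, the genes beside *ANO8*, the 3 genes closest to it, and up to 4 called genes per list, or otherwise the 2 most abundant. Alternatives were RLE and upper-quartile scaling, DESeq2 1.42.0, other filters, a replicate block and leaving out each sample.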

Additional observations from a re-analysis of the deposited data

How the results depend on the processing

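The counts of genes called higher and lower with chaetocin were 182 and 122. They were 385 and 481 with DESeq2, 787 and 759 without a filter on low counts, 114 and 80 under a minimum of 10 counts per sample, and 1036 and 1053 with the replicate block. With 1 sample left out in turn they ranged from 215 to 1332 higher and from 97 to 1673 lower, with 1332 and 1673 without chaetocin sample 1 and 712 and 940 without chaetocin sample 2. Called genes in the related lists, 1 higher and 1 lower, were 3 higher with upper-quartile scaling, 5 and 5 with DESeq2, 6 and 6 without a filter, 7 and 7 with the replicate block, and 1 to 13 higher and 0 to 13 lower with 1 sample left out, *ATP2B4* being lost without control sample 1 and without control sample 2. In these fits the lone sample of a group was assumed to vary like the other group, so they say little about stability. The causes were not tested.

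The log2 fold change of *ANO8* was -1.77 with upper-quartile scaling, which raised the median of all genes from 0.01 to 0.08, and lay between -1.87 and -1.82 in the other fits. The replicate block gave *ANO2* a log2 fold change of 2.74 with an adjusted p of 0.0417, the only call that any setting added among the 6 tested members other than *ANO8*; *ANO2* passed the filter only through the chaetocin samples, so this is no support for a difference. The labels share replicate numbers between the groups, but the differences between replicates correlated across genes with r = 0.123 only, over 2 pairs, so the numbers were not read as pairs. *ANO5* ranged from -0.30 to 0.39 and *ANO7* from -0.40 to 0.19 with 1 sample left out, each with both signs. *ANO2* ranged from 2.03 to 3.73 and *ANO3* from 0.58 to 2.21, and neither could be fitted under the minimum of 10 counts per sample. Scaled by length, the *ANO8* share of the family was 12.6% in control and 4.34% with chaetocin, in place of 9.48% and 3.24%. Depth limits the 5 members with at most 25 reads.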
